A study of Mus musculus with 6 samples.

Results

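The glutathione transferases described here are 10 genes, Gsta2, Gsta4, Gstm1, Gstm2, Gsto1, Gstt1, Gstk1, Mgst1, Mgst2 and Mgst3, followed in mouse cumulus-oocyte complexes around ovulation. Their members were the probe sets for which the platform annotation gave 1 of these symbols and no other, 16 of 45037 non-control probe sets. The genes were chosen by their log2 intensities on the arrays of all 3 groups, so their levels and differences are given as a description, without a test. Of the 16 probe sets, 14 had a mean over the 6 arrays at or above 5.62, the 40th percentile of all probe sets, below which a probe set was called dim. The other 2 were second probe sets of Mgst1 and Mgst3, so each of the 10 genes kept at least 1.

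Glutathione transferases join the tripeptide glutathione to reactive compounds, which makes them more soluble and marks them for export from the cell. The alpha and mu classes, here Gsta2, Gsta4, Gstm1 and Gstm2, are soluble dimers known for handling drugs, lipid peroxidation products and, for some alpha members, steroids. The microsomal enzymes, Mgst1, Mgst2 and Mgst3, belong to an unrelated membrane-bound family that also makes leukotrienes and prostaglandins. Cells that make steroids, such as those of the ovary, are known to contain much alpha class enzyme, and glutathione itself is passed between cumulus cells and the oocyte.

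In these complexes, cumulus cells, which derive from the granulosa of the follicle, surround the oocyte. Wild type immature females, of a strain not given in the labels, had all received equine chorionic gonadotropin (eCG), which makes follicles grow, for 48 h. The 3 groups, each of 2 arrays of pooled complexes, were eCG without human chorionic gonadotropin (hCG, the ovulatory stimulus), eCG followed by hCG for 8 h, and eCG followed by hCG for 16 h. The labels place the complexes without hCG in the ovary and those of both hCG times in the oviduct. Ovulation in mice is usually not complete 8 h after hCG, so the labelled place of the 8 h complexes is in doubt, and no value here settles it. If it is right, hormone and place of collection cannot be told apart at either hCG time, and if the 8 h complexes came from the ovary, time and place cannot be told apart for 16 h against 8 h. They also describe the complexes without hCG as expanded. The labels do not say that the 2 pools of a group came from separate animals, so every spread below is that between these pools and may be technical.

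Each array gave 1 log2 intensity per probe set. Pearson's r over all non-control probe sets was 0.991 between the arrays without hCG, 0.996 between those of 8 h, 0.995 between those of 16 h, and 0.943 to 0.978 between arrays of different groups. Array medians lay between 6.14 and 6.27. Each sample is a mixture of cumulus cells, the oocyte and whatever was collected with them, so fewer cells of a type and less RNA per cell cannot be told apart. The summed intensity of 14 oocyte markers was 45660 to 52765 without hCG, 10072 to 10648 at 8 h and 13576 to 16109 at 16 h. That of 17 leukocyte markers was 4456 to 4636, 3881 to 4081 and 9661 to 9756. Intensities were summed off the log2 scale, so bright probe sets weigh most. Laptm5, not called in any comparison, was the brightest leukocyte marker without hCG and at 8 h (means 11.47 and 11.11). Lyz2 was the brightest at 16 h (11.66). Markers of granulosa and cumulus cells summed to 95745 to 99342, 42034 to 50327 and 27215 to 31134. The oocyte and granulosa sums were lower at both hCG times than without hCG. Of the 17 leukocyte markers, 1 was called at 8 h against no hCG (median −0.10) and 14 at 16 h against 8 h (median 1.84). The part of these lists in the results on transferases was not tested.

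The alpha class genes were highest at 8 h and lowest at 16 h. Gsta2, an alpha class enzyme, read 7.46 and 8.08 on the log2 scale without hCG, 11.76 and 11.68 at 8 h, and 6.37 and 6.29 at 16 h. The arrays of the 3 groups did not overlap, and those at 16 h lay below those without hCG. The log2 difference was 3.95 ± 0.21 (SE of the limma fit, n = 2 arrays per group) for 8 h against no hCG, a 15.5-fold higher level. For 16 h against 8 h it was −5.39 ± 0.21, a 42.0-fold lower level, and for 16 h against no hCG −1.44 ± 0.21. Gsta2 is close in sequence to Gsta1 of the same cluster, so its reading may hold both. A probe set annotated to Gm3776, Gsta2 and Gsta1 together, not a member, read 7.55 and 7.40 without hCG, 11.70 and 11.31 at 8 h, and 6.24 and 5.62 at 16 h.

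Gsta4, which is known for removing 4-hydroxynonenal, an aldehyde of lipid peroxidation, read 11.92 and 11.65 without hCG, 13.47 and 13.44 at 8 h, and 8.55 and 8.34 at 16 h. Here too the 3 groups were separate, with 16 h far below both earlier groups. The log2 difference was 1.67 ± 0.16 for 8 h against no hCG, −5.01 ± 0.16 for 16 h against 8 h and −3.34 ± 0.16 for 16 h against no hCG. The last is a 10.1-fold lower level than without hCG, against 2.72-fold for Gsta2. So both alpha genes shared the order of the groups, while the step up at 8 h was larger in Gsta2 and the net loss at 16 h larger in Gsta4.

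The mu class genes were also highest at 8 h. The brightest probe set of Gstm1, a mu class enzyme of many tissues, read 10.16 and 9.83 without hCG, 12.52 and 12.15 at 8 h, and 9.74 and 9.15 at 16 h. Its difference was 2.34 ± 0.23 for 8 h against no hCG and −2.89 ± 0.23 for 16 h against 8 h. The other 3 Gstm1 probe sets had the same order at 8 h, with differences of 2.64, 2.27 and 1.30 against no hCG. They disagreed on the net change, since for 16 h against no hCG the 4 probe sets gave −0.55, −0.45, −0.08 and −0.10, and the arrays of these groups overlapped in 2 of them. Gstm1 probe sets may also bind transcripts of other mu genes, whose sequences are alike. Gstm2, the second mu gene, read 10.91 and 10.55 without hCG, 12.19 and 12.02 at 8 h, and 9.78 and 9.36 at 16 h. Its differences were 1.38 ± 0.20 for 8 h against no hCG, −2.54 ± 0.20 for 16 h against 8 h and −1.16 ± 0.20 for 16 h against no hCG.

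The microsomal genes did not share this course. Mgst1, a detoxifying enzyme of the endoplasmic reticulum and the outer mitochondrial membrane, read 12.10 and 12.49 without hCG, 13.64 and 13.90 at 8 h, and 13.76 and 13.84 at 16 h. The later groups overlapped each other and lay above the first. The difference was 1.47 ± 0.18 for 8 h against no hCG and 0.03 ± 0.18 for 16 h against 8 h. A second Mgst1 probe set stayed under the dim limit on every array, between 4.51 and 5.05. Mgst2, which can join glutathione to leukotriene A4, read 7.93 and 8.31 without hCG, 8.90 and 8.77 at 8 h, and 11.37 and 11.22 at 16 h. Its groups were separate and its main step came late, at 2.46 ± 0.17 for 16 h against 8 h, which is 5.52-fold, after 0.71 ± 0.17 for 8 h against no hCG. Mgst3, the third microsomal member, was highest without hCG, with 9.49 and 9.57, and read 8.21 and 7.83 at 8 h and 8.71 and 8.65 at 16 h. Its difference was −1.51 ± 0.17 for 8 h against no hCG and 0.66 ± 0.17 for 16 h against 8 h.

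At 16 h against 8 h, where Mgst2 was higher by 2.46, most leukocyte markers rose, and 11.8% of all genes were called higher. At 8 h against no hCG Mgst2 was higher by 0.71, and 1 of the leukocyte markers rose (median −0.10). Of 17 tested leukocyte markers, 14 rose at 16 h against 8 h (median log2 change 1.84, against 0.01 over all genes tested; adjusted p from 1.34e-05 to 0.0271 for those that rose, limma). The markers Itgam and S100a9 were dim, and Cd3e, Cd79a and Laptm5 were not called. Of 5 tested ovarian surface epithelium markers 3 rose and 1 fell at the same time, and of 7 oviduct epithelium markers 2 rose and 2 fell. The keratin genes Krt18 and Krt8 rose, Krt18 by 3.22 ± 0.21 and Krt8 by 2.44 ± 0.15, and so did Ovgp1, an oviduct secretory gene, by 3.85 ± 0.50. Krt19 and Cdh1 rose too, from group means of 6.27 to 7.44 and of 5.64 to 7.20. In the surface epithelium list Upk3b fell from 5.66 to 4.77. In the oviduct list Cldn3 fell from 9.02 to 7.82 and Wt1 from 7.57 to 6.26. The part of these cell types in the Mgst2 reading was not tested.

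The remaining soluble genes changed less than the alpha and mu genes in each of the steps. For 16 h against no hCG their differences were larger in size than that of Gstm1 (−0.55). Gsto1, an omega class enzyme that reduces dehydroascorbate, read 9.83 and 9.90 without hCG, 10.29 and 10.14 at 8 h, and 10.84 and 10.59 at 16 h on its brighter probe set. It was higher at each later time, in small steps without overlap, and differed by 0.85 ± 0.16 for 16 h against no hCG. On its second probe set the arrays without hCG read 7.97 and 9.12, a spread larger than either of the 2 steps on that probe set (1.04 and 0.47), and the same difference was 1.51 ± 0.32. Gstt1, a theta class enzyme, read 7.96 and 8.04 without hCG, 7.02 and 7.40 at 8 h, and 6.94 and 6.89 at 16 h. Gstk1, a kappa class enzyme of mitochondria and peroxisomes, read 9.13 and 9.18, 8.82 and 8.78, and 8.50 and 8.02 at the same times. Both were lower at each later time, at −1.08 ± 0.17 and −0.90 ± 0.18 for 16 h against no hCG. For 16 h against 8 h these differences were −0.30 ± 0.17 and −0.54 ± 0.18.

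**Figure D1:**
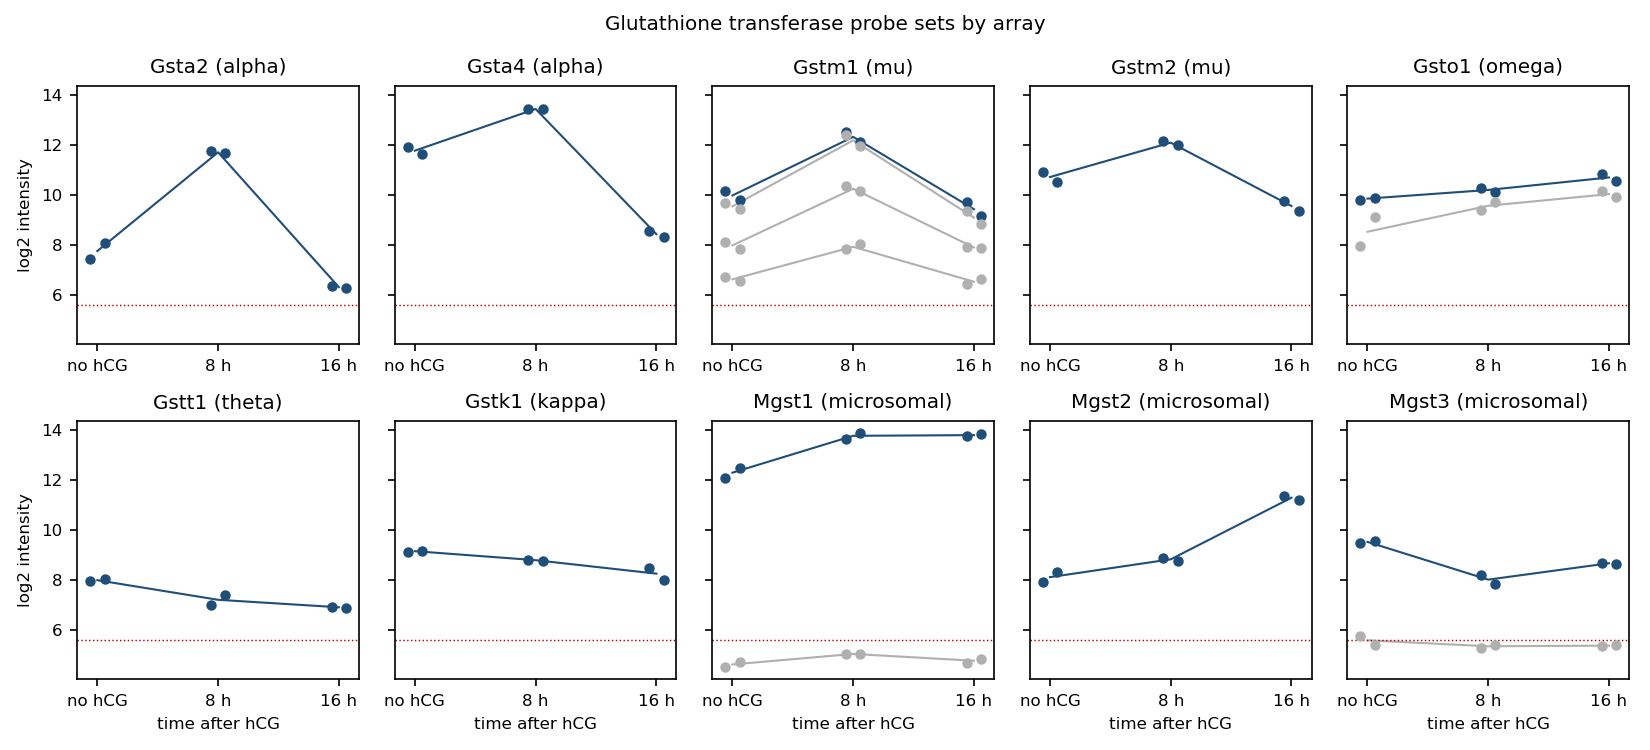
Log2 intensity (vertical axis) of every glutathione transferase probe set on each array without hCG, at 8 h and at 16 h (horizontal axis), 1 panel per gene. Points are single arrays, lines join group means, blue is the brightest probe set of the gene, grey the others, and the dotted line is the dim limit of 5.62. Gsta2, Gsta4, Gstm1 and Gstm2 peak at 8 h, Mgst1 stays high, Mgst2 is highest at 16 h, and Mgst3 is lowest at 8 h.

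Counted by the brightest probe set of each gene, 7 of the 10 genes were higher and 3 lower at 8 h than without hCG. By the fit over all probe sets, with an adjusted p under 0.05 as the call, 6 of 10 were called higher and 2 lower, where 16.9% of 13559 genes tested were called higher and 20.5% lower (33.9% of probe sets in either direction). Between 16 h and 8 h, 2 were called higher and 4 lower, where 11.8% and 9.12% of all genes were (18.2% of probe sets). For 16 h against no hCG, 3 were called higher and 6 lower, where 20.8% of all genes were called in each direction (37.3% of probe sets). These contrasts chose the members, so nothing is read from the counts. The median log2 difference of the 10 genes was 1.04 for 8 h against no hCG, −0.42 for 16 h against 8 h and −0.88 for 16 h against no hCG. Over all genes tested it was −0.02, 0.01 and −0.02.

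**Figure D2:**
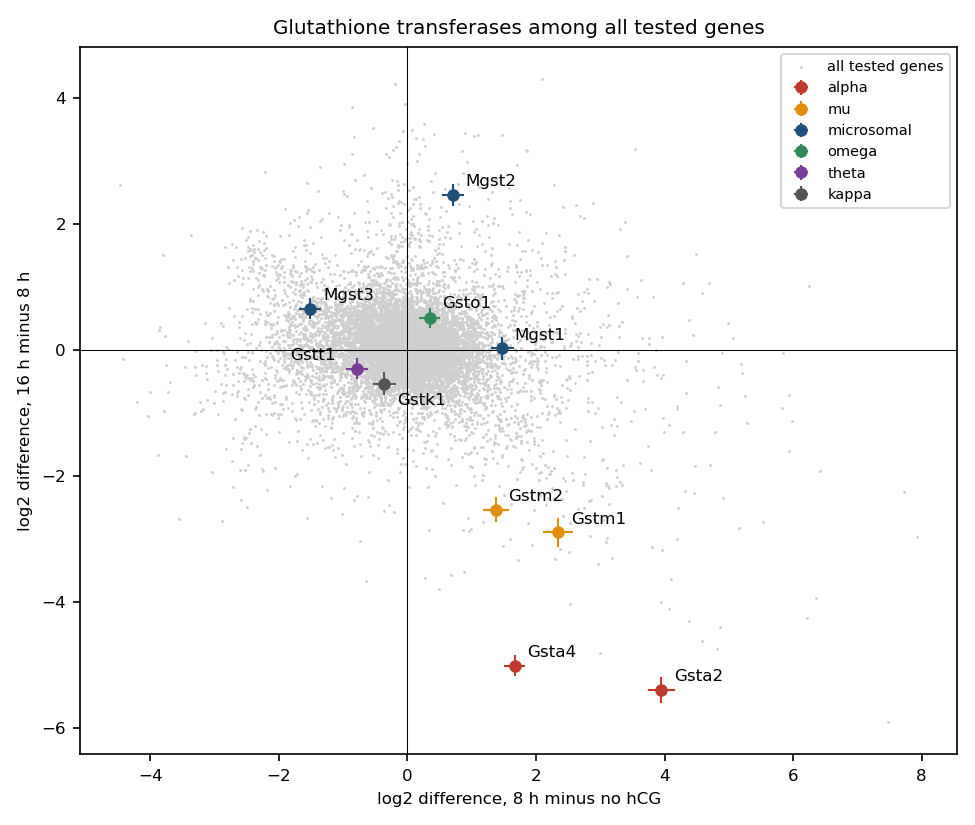
Log2 difference of 16 h minus 8 h (vertical axis) against that of 8 h minus no hCG (horizontal axis) for all genes tested (grey) and the 10 glutathione transferases (coloured by class, bars ± SE of the limma fit). Gsta2 lies at 3.95 and −5.39, Mgst2 at 0.71 and 2.46, and Mgst3 at −1.51 and 0.66. Both axes share the 8 h arrays, so the spread of the grey points is not a relation between times.

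The likeness of these time courses was measured as the root mean square difference of log2 values over the 6 arrays, after each gene was centred on its own mean. Among the 10 genes the closest pairs were Gstt1 with Gstk1 (0.25) and Gstm1 with Gstm2 (0.41). Of all other tested genes, the closest to Gsta2 was the ferritin receptor gene Scara5 (0.43), followed by Cldn1, a tight junction gene (0.58), Cd34, a sialomucin gene (0.63), Penk, which encodes the opioid peptide precursor proenkephalin (0.64), and Tmem255a (0.68). Scara5 had a difference of −4.80 ± 0.15 for 16 h against 8 h, and −1.80 ± 0.15 for 16 h against no hCG. For 16 h against no hCG Cldn1, Cd34, Penk and Tmem255a were at −0.04, 0.07, −0.05 and 0.07, not called, against −1.44 for Gsta2. Without hCG and at 16 h, the means of Cldn1 (4.77 and 4.74) and Tmem255a (4.16 and 4.23) lay under the dim limit. Their 8 h arrays alone lifted these genes above it. Closest to Gsta4 were the protocadherin gene Pcdh18 (0.61), the hypoxia-inducible factor gene Epas1 (0.63), the matrix gene Comp (0.67), Pcdh8 (0.68) and Scara5 again (0.69). Pcdh18, Epas1, Comp and Pcdh8 had differences of −3.58, −3.53, −3.61 and −3.79 for 16 h against 8 h, each less than Gsta4. For 8 h against no hCG they were at 0.68, 0.88, 0.27 and 0.50, against 1.67 for Gsta4, and Comp and Pcdh8 were not called.

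The promoters of some members are shown because genes with a shared course and genes with another one can be set side by side. RefSeq windows of 300 bases (GRCm38.p6, 250 before to 50 after a transcript start) were given for 9 of the 10 genes, in 11 windows. The gene without a window was Gsta4. In the sequences, capitals mark matches to any of 8 motifs searched on both strands. Gsta2, Gstm1 and Gstm2 were highest at 8 h, Mgst1 was high at both later times and Mgst2 was highest at 16 h.
Gsta2, chr9:78347096-78347395, minus strand: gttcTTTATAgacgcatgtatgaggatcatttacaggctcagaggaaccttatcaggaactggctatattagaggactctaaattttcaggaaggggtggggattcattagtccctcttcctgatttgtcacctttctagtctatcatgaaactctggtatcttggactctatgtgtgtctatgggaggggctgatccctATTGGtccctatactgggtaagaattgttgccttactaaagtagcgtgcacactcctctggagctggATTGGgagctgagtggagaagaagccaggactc
Gstm1, chr3:108017769-108018068, minus strand: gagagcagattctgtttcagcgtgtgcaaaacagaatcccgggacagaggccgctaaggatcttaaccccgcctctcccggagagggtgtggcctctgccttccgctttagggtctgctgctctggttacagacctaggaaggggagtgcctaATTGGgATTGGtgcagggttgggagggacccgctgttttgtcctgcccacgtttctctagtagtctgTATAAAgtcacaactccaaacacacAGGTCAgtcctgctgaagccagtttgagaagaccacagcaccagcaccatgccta
Gstm2, chr3:107986371-107986670, minus strand: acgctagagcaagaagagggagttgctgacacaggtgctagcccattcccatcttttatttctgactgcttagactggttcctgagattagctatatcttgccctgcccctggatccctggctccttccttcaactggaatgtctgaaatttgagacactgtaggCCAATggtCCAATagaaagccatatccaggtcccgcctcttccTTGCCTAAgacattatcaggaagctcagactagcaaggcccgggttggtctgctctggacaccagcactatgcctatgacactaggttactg
Mgst1, chr6:138140277-138140576, plus strand: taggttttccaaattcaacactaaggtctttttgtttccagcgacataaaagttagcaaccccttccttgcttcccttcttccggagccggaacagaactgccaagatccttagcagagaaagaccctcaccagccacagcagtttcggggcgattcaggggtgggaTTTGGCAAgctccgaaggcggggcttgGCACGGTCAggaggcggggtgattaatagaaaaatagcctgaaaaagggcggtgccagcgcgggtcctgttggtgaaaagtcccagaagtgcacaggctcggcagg
Mgst2, chr3:51660929-51661228, plus strand: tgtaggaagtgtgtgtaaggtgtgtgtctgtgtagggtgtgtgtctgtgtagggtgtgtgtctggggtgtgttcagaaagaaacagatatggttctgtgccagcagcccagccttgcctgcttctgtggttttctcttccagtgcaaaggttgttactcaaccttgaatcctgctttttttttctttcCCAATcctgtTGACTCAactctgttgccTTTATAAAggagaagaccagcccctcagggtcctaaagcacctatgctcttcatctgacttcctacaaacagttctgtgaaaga

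The antioxidant response element core TGACNNNGC, bound by NRF2, was found in 1 of the 11 member windows, that of Mgst1 (as GCACGGTCA, the other strand), and in 12.4% of all 32851 windows of that length. The AP-1 site TGANTCA was found in the Mgst2 window, as TGACTCA, and in 7.81% of all windows. The nuclear receptor half-site AGGTCA was in the Gstm1 window shown and in that of Gstk1 (16.3% of all), and the C/EBP site TTGCNNAA in those of Gstm2, Mgst1 and Gstt1 (10.8%). CCAAT was in 7 of 11 member windows (37.4% of all) and TATAAA in 3 (13.6%). AGATAA, the GATA site, was in the Gstk1 window alone (11.2% of all), and the cAMP response element TGACGTCA in 0 (1.79%). In the Mgst2 window, matches to TATAAA on both strands overlap. No motif of the 8 was in all of the windows of Gsta2, Gstm1 and Gstm2 other than CCAAT. These are matches of letters and show no binding. Sequence outside the windows was not searched, so a motif not found here may lie elsewhere at the gene.

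The alpha and mu genes lie in clusters, and their neighbours were examined by position along the chromosome in the RefSeq table. On chromosome 9, Gsta4 and Gsta2 are separated by Gsta1, Gm3776, Gm10639, Omt2a and Omt2b. Omt2a and Omt2b, transcripts known from the oocyte, were tested and moved the other way, with log2 changes of −2.73 ± 0.26 and −2.33 ± 0.17 for 8 h against no hCG and 1.67 ± 0.26 and 1.42 ± 0.17 for 16 h against 8 h (adjusted p from 6.89e-06 to 0.00159, limma). Next to Gsta2, the oocyte genes Dppa5a and Ooep fell in both steps, Ooep by 2.24 at 8 h against no hCG and by 1.93 at 16 h against 8 h. Of the 16 tested non-members from 10 genes before to 10 after this pair, 3 rose and 5 fell at 8 h against no hCG, where 37.4% of all genes were called. At 16 h against 8 h, 4 rose and 3 fell, where 20.9% were called. The one with the course of the alpha genes, picked here after its values were seen, was Gclc, described with glutathione synthesis.

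In the mu cluster on chromosome 3, Gstm5, Gstm7, Gstm6 and Gstm3 precede Gstm2, and Gstm4 follows Gstm1. At 8 h against no hCG, 2 of 15 tested non-members in the same range rose and 3 fell, where 37.4% of all genes were called. At 16 h against 8 h, 1 rose and 2 fell, where 20.9% were called. Both that fell late were mu genes, Gstm7 and Gstm6, with log2 changes of −1.68 ± 0.15 and −1.22 ± 0.16, but the second Gstm7 probe set gave 0.09 and was not called, and the mean of both gave −0.80. Gstm3 and Gstm4, placed beside the members, were not called in any comparison, with differences from −0.40 to 0.34.

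**Figure D3:**
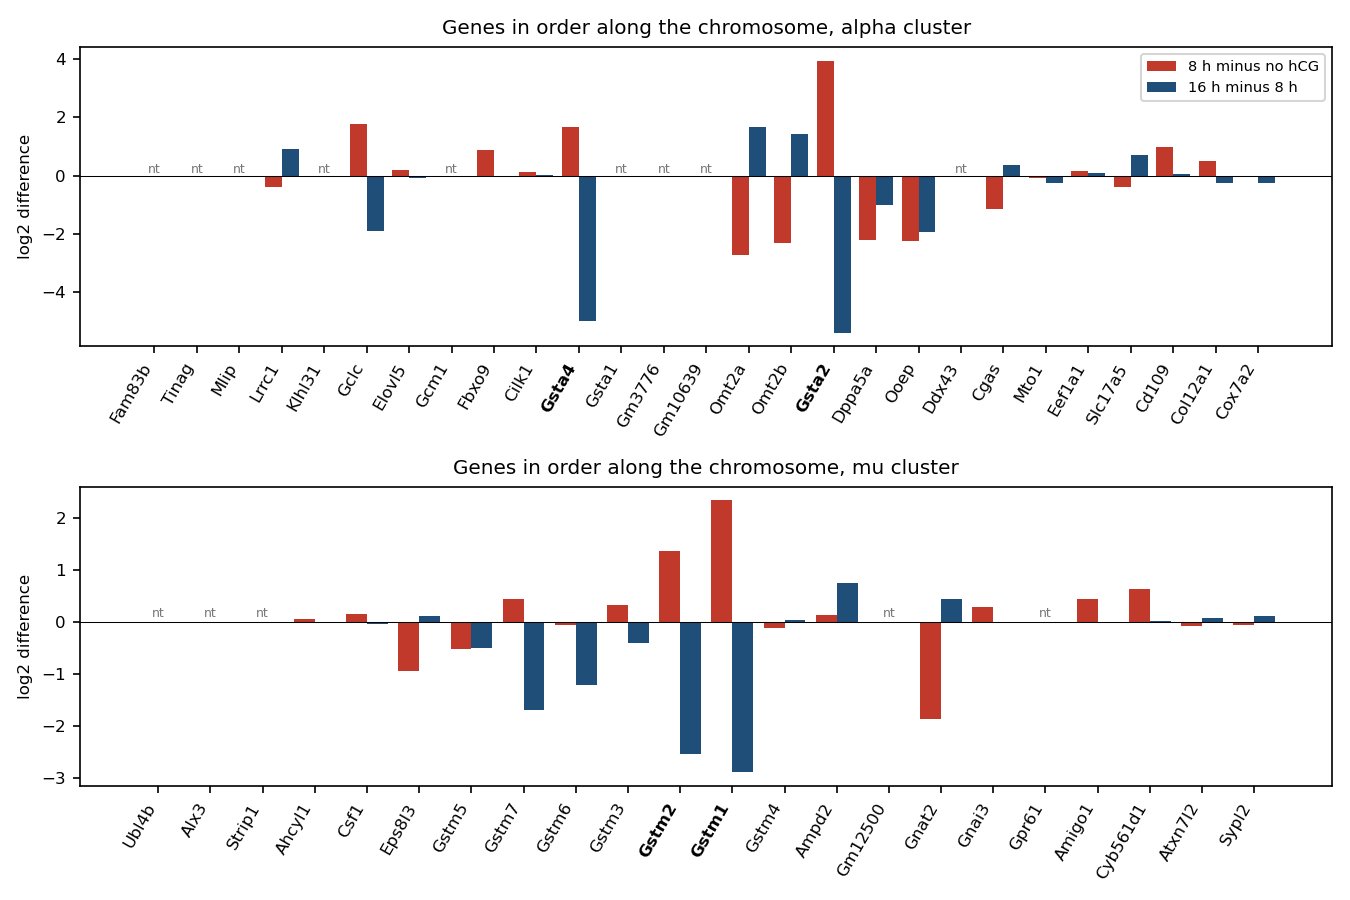
Log2 differences of 8 h minus no hCG (red) and 16 h minus 8 h (blue) for genes in their order along the chromosome, from 10 genes before to 10 after the alpha pair (upper panel) and the mu pair (lower panel). Members are in bold, and nt marks genes without a tested probe set. Gclc has the signs of Gsta4 and Gsta2, whereas Omt2a and Omt2b, between these genes, have the opposite signs.

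Of all genes tested, 37.4% were called at 8 h against no hCG and 20.9% at 16 h against 8 h. For 16 h against no hCG it was 41.6%. These shares stand beside the counts of every list below. Other glutathione transferases were taken from a list of 21 genes, 13 of them tested. The list also holds relatives named for other work, such as Alox5ap and Ptges, which are counted in it here and below. At 8 h against no hCG, 2 rose and 5 fell. Alox5ap, a membrane protein of the microsomal family that presents arachidonic acid for leukotriene synthesis, rose by 1.25 ± 0.22, and Gstm7 by 0.44 ± 0.15. Ptges, the microsomal prostaglandin E synthase, fell, at −2.22 ± 0.16, Gstz1, an enzyme of tyrosine breakdown, at −1.45 ± 0.17, Gstt2 at −0.99 ± 0.18, Gstcd at −0.64 ± 0.20 and Gstm5 at −0.52 ± 0.17. Adjusted p-values of the 7 ran from 5.98e-06 to 0.0458 (limma), and the median of the 13 was −0.10. The calls of Gstm7, Gstm5 and Gstcd were lost under 9, 4 and 6 of 15 alternatives, with adjusted p up to 0.272, 0.191 and 0.284, and the second Gstm7 probe set was not called. Gstcd was at −0.40 without replicate 1 of the 8 h group. Without replicate 2 of the group without hCG, or without replicate 1 of the 8 h group, 4 of the 13 were called.

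In the second step, 16 h against 8 h, Alox5ap rose by 1.98 ± 0.22 and Gstm7 and Gstm6 fell, while 10 of the 13 were not called. The count of called genes was 8, not 3, when the fit held only the compared groups, and also without either array of the group without hCG. Over the whole interval, 16 h against no hCG, Alox5ap rose by 3.23 ± 0.22 and 5 genes fell: Ptges (−1.77 ± 0.16), Gstm6 (−1.28 ± 0.16), Gstm7 (−1.24 ± 0.15), Gstm5 (−1.03 ± 0.17) and Gstz1 (−0.90 ± 0.17). The second Gstm7 probe set gave 0.16 and was not called, and the mean of both gave −0.54. Alox5ap read 5.99 and 6.57 without hCG, 7.44 and 7.62 at 8 h, and 9.70 and 9.31 at 16 h, the same order of groups as Mgst2. Alox5ap is known from leukocytes. Of their 17 tested markers, 1 rose at 8 h against no hCG (median −0.10) and 14 rose at 16 h against 8 h (median 1.84). The part of leukocytes in the Alox5ap reading was not tested. Gstp1, a pi class enzyme, was not called in any comparison, with differences between −0.11 and 0.02.

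Genes that make, recycle and break down glutathione changed in 9 of 18 tested cases at 8 h against no hCG, 7 upward and 2 downward (median 0.24). Those that rose included Chac2, a glutathione-cleaving cyclotransferase (1.89 ± 0.27), Slc7a11, the cystine importer that supplies cysteine (1.87 ± 0.17), its partner chain Slc3a2 (1.39 ± 0.17), and Gclc, the catalytic subunit of the first and limiting enzyme of glutathione synthesis (1.78 ± 0.15). Gss, glutathione synthetase, rose by 1.33 ± 0.20, Gsr, glutathione reductase, by 1.03 ± 0.33 and Ggct, gamma-glutamylcyclotransferase, by 0.61 ± 0.15. Cbs and Cth, which turn homocysteine into cysteine, fell, at −2.38 ± 0.15 and −0.63 ± 0.18. Adjusted p-values ran from 3.13e-06 to 0.0364 (limma). The calls of Gsr, Cth and Ggct were lost under 6, 3 and 2 of 15 alternatives, with adjusted p up to 0.266, 0.113 and 0.0779. Gsr was at 0.55 when the first of the 2 pools not given hCG was left out, Cth at −0.40 when it was the second, and Ggct at 0.98 on its second probe set. Gclm, the modifier subunit that pairs with Gclc, was not called (−0.36 ± 0.22).

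The list split at 16 h against 8 h. Slc7a11, Gclc, Chac2, Ggct and Gclm fell, at −2.74 ± 0.17, −1.89 ± 0.15, −1.59 ± 0.27, −1.22 ± 0.15 and −0.87 ± 0.22. Gsr, Gss, Cbs and Oplah, the 5-oxoprolinase, rose by 1.45 ± 0.33, 0.77 ± 0.20, 0.66 ± 0.15 and 0.81 ± 0.15. Adjusted p-values of the 9 ran from 1.19e-05 to 0.0242 (limma), and 20.9% of all genes were called in this comparison. The count of 9 became 5 when replicate 1 of the 8 h or of the 16 h pools was left out, and 4 when it was replicate 2 of the 16 h pools. The calls of Cbs and Gss were lost when any of the 4 arrays was left out, with adjusted p up to 0.107 and 0.158, and those of Gclm, Gsr, Chac2 and Oplah under 3, 3, 1 and 1 of 15 alternatives (up to 0.215, 0.121, 0.0554 and 0.0631). Gclm was at −0.54 without replicate 1 of the 8 h group, and Ggct at −0.77 with the mean of its probe sets. The third Ggct probe set gave −0.30 and was not called. Gclc read 10.02 and 10.13 without hCG, 11.94 and 11.77 at 8 h, and 10.01 and 9.92 at 16 h, so the arrays at 16 h lay just below those without hCG. Its second probe set gave 1.76 and −2.08 for the same steps. Gsr read 7.85 and 8.82 without hCG, 8.94 and 9.79 at 8 h, and 10.76 and 10.87 at 16 h. The groups were in 1 order, with a wide spread within the pairs without hCG and at 8 h.

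Over the whole interval 5 genes of the list rose and 6 fell at 16 h against no hCG. Gsr (2.48 ± 0.33), Gss (2.10 ± 0.20), Slc3a2 (0.98 ± 0.17), Oplah (0.95 ± 0.15) and Ggt7 (0.66 ± 0.22) rose. Cbs (−1.72 ± 0.15), Gclm (−1.23 ± 0.22), Slc7a11 (−0.87 ± 0.17), Cth (−0.75 ± 0.18), Ggct (−0.61 ± 0.15) and Lap3 (−0.49 ± 0.16) fell. Slc7a11 has a second probe set with the opposite net sign, 0.95, and the mean of both gave 0.04, while both had the same signs in the 2 steps. The second Ggct probe set gave 0.19 and was not called. The calls of Ggt7 and Lap3 were lost under 7 of 14 and 7 of 15 alternatives, with adjusted p up to 0.216 and 0.173, and Ggt7 was at 1.01 when the first of the 2 pools not given hCG was left out and at 0.30 when it was the second. With replicate 2 of the 16 h pools left out, 7 genes of this list were called in place of 11, and the calls of Cth and Ggct were among those lost.

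**Figure D4:**
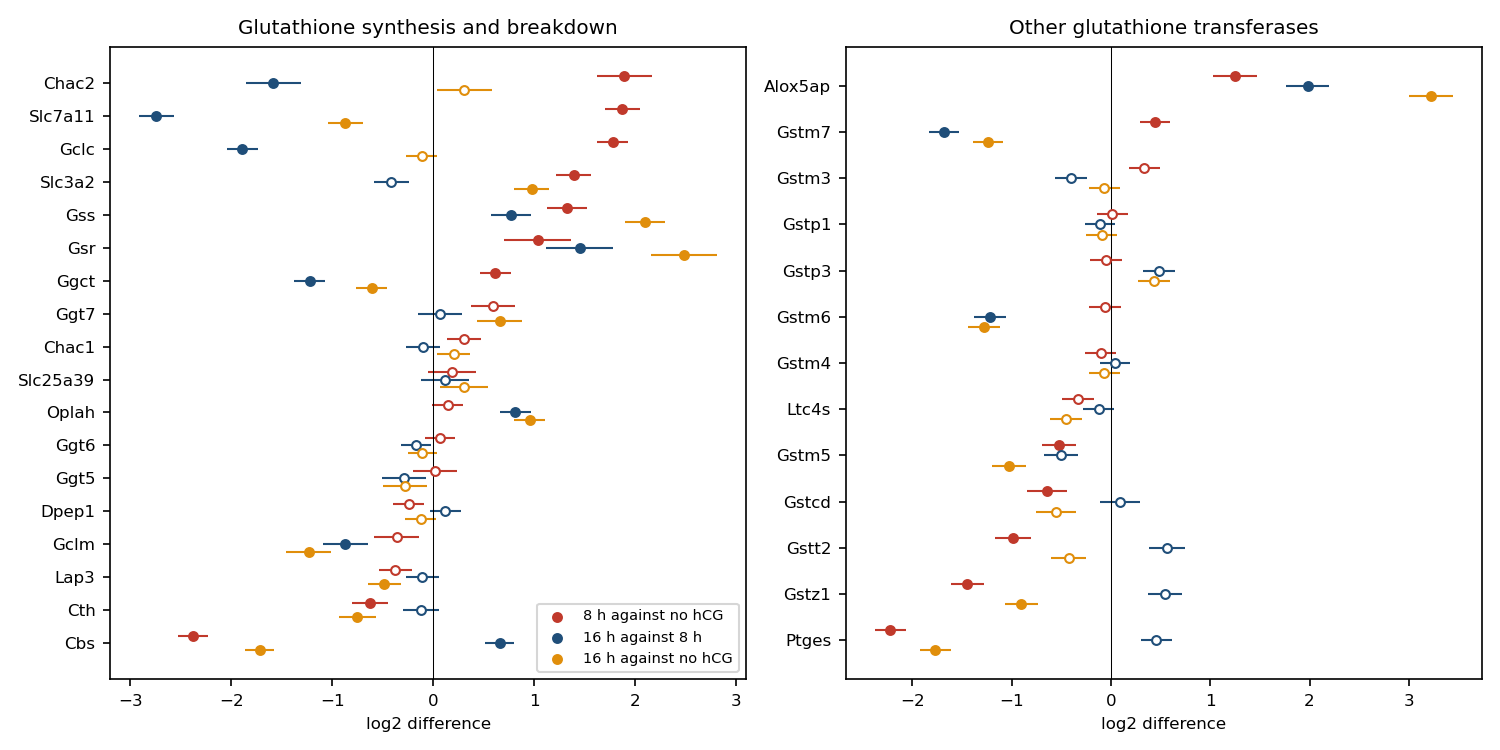
Log2 differences (horizontal axis, bars ± SE of the limma fit, n = 2 arrays per group) of the tested genes of glutathione synthesis and breakdown (left) and of the other glutathione transferases (right), in 3 comparisons. Filled points passed an adjusted p under 0.05 and open points did not. Chac2, Slc7a11 and Gclc have high red and low blue points, Gss and Gsr are above 0 in all 3 comparisons, and Alox5ap is highest at 16 h.

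NRF2, encoded by Nfe2l2, is the transcription factor best known for turning on glutathione genes under oxidative stress, and KEAP1 is its inhibitor. Nfe2l2 was at 1.01 ± 0.19 for 8 h against no hCG and 0.25 ± 0.19 for 16 h against 8 h, with the first called and the second not, and Keap1 at 0.01 ± 0.15 and 0.02 ± 0.15. Of 18 tested NRF2 regulators and targets, 7 rose and 3 fell at 8 h against no hCG (median 0.08). Me1, the malic enzyme that makes NADPH, rose by 1.82 ± 0.16 and the NRF2 competitor Bach1 by 1.63 ± 0.27. The epoxide hydrolase gene Ephx1 fell, at −1.48 ± 0.17 and the small Maf gene Maff at −0.85 ± 0.27. Maff lost its call under 8 of 15 alternatives (adjusted p up to 0.163), and was at −0.37 when the first of the 2 pools not given hCG was left out and at −1.32 when it was the second. In the step to 16 h, 2 rose, Blvrb (0.80 ± 0.19) and Pgd (0.55 ± 0.17). Both calls were lost when replicate 2 of the 8 h pools or replicate 1 of the 16 h pools was left out, and the 10 calls of the first step became 6 without replicate 2 of the 8 h group. Of the 18, 8 rose and 2 fell at 16 h against no hCG, with Me1 at 2.05 ± 0.16 and Bach1 2.83-fold higher, and with Ephx1 at −1.28 ± 0.17 and Mafk at −0.64 ± 0.18, a call lost under 3 of 15 alternatives (adjusted p up to 0.105).

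Glutathione peroxidases and glutaredoxins, which use glutathione to reduce peroxides and disulfides, fell in 4 of 12 cases at 8 h against no hCG and rose in 1. The share of all genes called in this comparison was 37.4%. Gpx6 and Gpx7 fell, at −1.09 ± 0.15 and −1.05 ± 0.16, and Gpx8 rose by 0.59 ± 0.16. Without replicate 2 of the 8 h group 3 were called in place of 5, and Gpx8 lost its call without either 8 h array (adjusted p up to 0.127). In the next step the secreted peroxidase gene Gpx3 rose by 1.02 ± 0.19 and the glutaredoxin gene Glrx fell, at −1.02 ± 0.18 at 16 h against 8 h. Without replicate 2 of the 8 h group, or replicate 1 of the 16 h group, 1 of these 2 calls was made. Against no hCG, 1 rose at 16 h, Gpx3 (0.69 ± 0.19), and 5 fell, led by Glrx (−2.01 ± 0.18) and Gpx7 (−1.33 ± 0.16), with 3 called in place of 6 without replicate 1 of the group without hCG or replicate 1 of the 16 h group. Gpx1 and Gpx4, the main intracellular peroxidases, were not called in any comparison.

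Pumps that carry glutathione conjugates out of the cell are the last step of the pathway. They were listed together with pumps known for drugs, such as Abcb1a and Abcb1b. Of 8 tested, 2 rose and 1 fell at 8 h against no hCG. The paralogous P-glycoprotein genes Abcb1b and Abcb1a, whose probe sets may share transcripts, rose by 2.29 ± 0.21 and 2.09 ± 0.20, and the conjugate pump gene Abcc3 fell, at −2.69 ± 0.15 (adjusted p from 1.8e-06 to 3.62e-05, limma). In the step to 16 h, 4 rose and 1 fell against 8 h, with Abcb1a at 1.70 ± 0.20, Abcb1b at 1.41 ± 0.21 and Abcc2, another conjugate pump, at −1.57 ± 0.21. Any of the 4 arrays of these groups left out gave 3 calls in place of 5. Against no hCG, 2 rose at 16 h, Abcb1a (3.79 ± 0.20) and Abcb1b (3.70 ± 0.21), and 2 fell, Abcc3 (−2.16 ± 0.15) and Abcc2 (−1.73 ± 0.21). Abcc1, a widely expressed conjugate pump, was not called in any comparison.

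Over the 8 lists together, 112 of 146 genes were tested. At 8 h against no hCG 45.5% of them were called, 27 upward and 24 downward, where 37.4% of all genes were called. For 16 h against 8 h it was 27.7%, 18 upward and 13 downward, where 20.9% were, and at 16 h against no hCG 54.5%, 29 upward and 32 downward, where 41.6% were. The medians were −0.05, 0.08 and −0.03. The 31 calls of the middle comparison became 19 when replicate 2 of the 8 h pools was left out, and 20 when it was replicate 1 of those pools or either of the 16 h pools.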

How the data were processed

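Gene expression of 6 pools of mouse cumulus-oocyte complexes was measured on an Affymetrix array with biotin-labelled cRNA. The authors deposited 1 table of log2 intensities, from 3.32 to 15.5, whose range shows the scale. Background correction, normalization, probe set summary and software are not given in the sources used here, so the values were used as deposited, and signal over background is unknown. Columns were matched to samples by header, and groups and replicate numbers came from the titles.

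Without the 64 control probe sets, 34945 probe sets had exactly 1 symbol in the platform annotation, 932 had several and 9160 had no symbol. Probe sets with a mean under the 40th percentile were not tested, which left 27022 probe sets and 13559 genes, each by its brightest probe set. Group means were fitted to the 6 arrays with limma 3.58.1 in R 4.3.3 (lmFit, eBayes; degrees of freedom were 3 residual and 6.43 prior). All tests are two-sided, with Benjamini-Hochberg adjustment over 27022 probe sets, and a call is an adjusted p under 0.05. The fit was tested on simulated data.

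The members, the 8 pathway lists and the 8 cell type lists were chosen with earlier results of these data known. Members get no test. Named from the lists are all called genes of the other transferases and of glutathione synthesis, and up to 2 called genes per direction, list and comparison elsewhere. Genes most like Gsta2 and Gsta4 are the 5 closest by root mean square difference. Nfe2l2, Keap1, Gclm at 8 h, Gstp1, Gpx1, Gpx4, Abcc1 and chromosomal neighbours were named for their role or place. So were Laptm5, Cd3e, Cd79a, the keratin genes and Ovgp1. Lyz2, Cdh1, Upk3b, Cldn3 and Wt1 were named after their values were seen. The comparisons share arrays. Alternatives were other normalizations, dim filters, probe set rules, arrays in the fit, a variance trend, a replicate block and each array left out. Only 2 arrays per group limit the precision.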

Additional observations from a re-analysis of the deposited data

How the results depend on the processing

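Counts of called probe sets were 9167 at 8 h against no hCG, 4922 at 16 h against 8 h and 10072 at 16 h against no hCG. With 1 array left out, and the lone array then assumed to vary like the other groups, they ran from 6109 to 9450, from 2518 to 6340 and from 7312 to 10345. The counts of listed pathway genes, 51, 31 and 61, ran from 37 to 49, from 19 to 39 and from 44 to 63. The cause was not tested, beyond the loss of an array. Under the other alternatives all 6 counts stayed within 1.5 times their value. Replicate numbers are shared by the groups, but the labels do not tie them to an animal or day, and same-numbered arrays deviated together with correlations of 0.47 (8 h and no hCG), 0.13 (16 h and 8 h) and 0.00103 (16 h and no hCG). With the replicate block the counts were 10117, 5812 and 11045 probe sets and 54, 36 and 66 listed genes. Among single lists, the other transferases had 3 calls at 16 h against 8 h, against 5 with quantile normalization, 6 with the mean of a gene's probe sets or the block and 8 with only the compared groups, and 6 at 16 h against no hCG, against 10 with the block. Peroxidases and glutaredoxins had 3 calls in place of 5 at 8 h when probe sets under the 60th percentile were dropped as dim. Another alternative left out probe sets whose names end in _x_at, _s_at or _a_at, here called suffixed. Without suffixed probe sets, conjugating enzymes had 1 call in place of 4 at 8 h and of 3 at 16 h against 8 h. NRF2 genes then had 1 in place of 2 at 16 h against 8 h, as they had with median centring or no dim filter. Of the recomputed differences of called listed genes, 1918 kept their call, 188 lost it and 2 changed sign, both at 16 h against no hCG and both through another probe set: Slc7a11 at 0.0419 with the mean of its probe sets, and Ggct at 0.19 without suffixed probe sets. Of the recomputed member differences, 287 moved by less than the replicate SD, 10 moved by more, and no called one changed sign. Gsta2 gave no value without suffixed probe sets, since the name of its only member probe set ends in _a_at. Mgst1 then rested on its dim probe set (0.42 for 8 h against no hCG and 0.15 for 16 h against no hCG).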

Other observations

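Enzymes that remove reactive aldehydes, the substrates Gsta4 is known for, moved in both directions. Of 18 tested, 3 rose and 4 fell at 8 h against no hCG, where 37.4% of all genes were called. The aldo-keto reductase gene Akr1b8 was at 3.58 ± 0.18 and the retinaldehyde dehydrogenase gene Aldh1a3 at 2.01 ± 0.15. Aldh1a7 was at −3.11 ± 0.20 and Aldh3b1 at −1.79 ± 0.16 (adjusted p of the 7 from 1.13e-06 to 0.000163, limma). When suffixed probe sets were dropped, Aldh1a3 was at 3.87. In the step from 8 h, 3 rose and 3 fell at 16 h, among them the carbonyl reductase gene Cbr3 (1.25 ± 0.19), Aldh3b1 (1.17 ± 0.16), Aldh1a1, which fell (adjusted p = 6.48e-05, limma), and Aldh3a2 (−0.93 ± 0.15). Over the whole interval 6 rose and 7 fell at 16 h against no hCG, with Akr1b8 at 3.40 ± 0.18, Cbr3 at 2.80 ± 0.19, Aldh1a7 at −3.91 ± 0.20 and Aldh1a1 at −3.76 ± 0.17. Aldh1a1 and Aldh1a7 are close paralogs, so their readings may share transcripts.

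Of 14 tested thioredoxin system, superoxide dismutase and catalase genes, 2 rose and 4 fell at 8 h against no hCG. The sulfiredoxin gene Srxn1 rose by 2.61 ± 0.23 and Txn1 by 0.60 ± 0.16, while the thioredoxin inhibitor gene Txnip fell, at −1.35 ± 0.16 and Txnrd2 at −0.93 ± 0.17. With the mean of their probe sets, Srxn1 was at 1.48 and Txnrd2 at −0.54, and the Txn1 call was lost without replicate 2 of the 8 h group (adjusted p = 0.154, limma). Txnrd2 rose by 0.58 ± 0.17 at 16 h against 8 h, a call lost when any of the 4 arrays was left out (adjusted p up to 0.221). Against no hCG 2 rose and 3 fell at 16 h, including Srxn1 (2.08 ± 0.23), Txn1 (0.47 ± 0.16), Txnip (−1.37 ± 0.16) and Prdx4 (−0.78 ± 0.16), with 3 called in place of 5 without replicate 1 of the group without hCG or either array of the 16 h group. The late call of Txn1 was lost under 9 of 15 alternatives (adjusted p up to 0.291), and Srxn1 was at 1.04 with the mean of its probe sets. Among 11 tested xenobiotic receptor and other conjugation genes, 3 rose and 1 fell at 8 h against no hCG: Sult1a1 (1.44 ± 0.17) and Ephx2 (1.42 ± 0.17) rose furthest and the aryl hydrocarbon receptor gene Ahr fell, at −1.08 ± 0.16. With the mean of its probe sets Ahr was at −0.35 and not called (adjusted p = 0.0701, limma), and at 1.10 for 16 h against 8 h. Ahr rose by 2.12 ± 0.16 and Nat2 by 0.86 ± 0.26 at 16 h against 8 h, and Sult1a1 fell, at −1.28 ± 0.17. The Nat2 call was lost under 5 of 14 alternatives (adjusted p up to 0.307), and Nat2 was at 0.49 without replicate 1 of the 16 h group. Against no hCG 4 rose and 2 fell at 16 h, among them Nat2 (1.65 ± 0.26), Ephx2 (1.33 ± 0.17), Rxra (−0.58 ± 0.15) and Tiparp (−0.56 ± 0.16), with 3 called in place of 6 without replicate 2 of the 16 h group.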
